A study of Mus musculus with 12 samples.

Results

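The 10 transcripts described here encode enzymes of glycolysis that act on glucose once it has been phosphorylated, and were chosen by name: Gpi1, Pfkl, Pfkm, Pfkp, Aldoa, Tpi1, Pgk1, Pgam1, Eno1 and Pkm. They correspond to 11 of the 52962 gene identifiers in the count table, because the symbol Aldoa has 2 identifiers, and all 11 passed the filter on low counts that left 15598 genes. They were measured by RNA-seq of islet cells from females of the NOD strain, which is prone to autoimmune diabetes. The 12 samples form 4 groups of 3: 4-week β-cells, 8-week β-cells, 4-week non-β-cells and 8-week non-β-cells, all of the NOD genotype and with no agent named in the labels. Each sample held between 13755106 and 27040652 estimated counts. Islets were cultured overnight and dispersed, and the cells were separated by autofluorescence after CD45-positive cells had been gated out. The study describes each sample as a pool of 3 mice, a detail absent from the labels, and no strain without diabetes was in these files.

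Glycolysis converts glucose to pyruvate in the cytosol. In β-cells it has a second task, since its rate follows the glucose outside the cell and the pyruvate it makes feeds mitochondrial ATP production, which closes potassium channels and releases insulin. Mature β-cells are known for keeping lactate dehydrogenase and the lactate exporter very low, so that pyruvate goes to the mitochondria. Several glycolytic genes are also known targets of the hypoxia-inducible factors. The comparisons ask how these enzymes differed between the 2 ages in each cell fraction, and between the fractions at each age.

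The fractions carried the hormones their labels imply. The summed level of 8 β-cell markers (Ins1, Ins2, Iapp, Mafa, Nkx6-1, Pdx1, Slc2a2, Ucn3) ran from 46322 to 81304 CPM (counts scaled to the library total) in β-cells at 4 weeks, from 106957 to 112521 in β-cells at 8 weeks and from 2877 to 5840 in the non-β samples. The 6 α-cell markers (Gcg among them) summed to between 106259 and 135948 CPM in the non-β samples, the highest of the marker sums there. The 8 leukocyte markers summed to between 50.9 and 53.3 CPM in 4-week β-cells, 69.1 and 77.4 in 8-week β-cells, 7.78 and 12.3 in 4-week non-β-cells and 14.0 and 19.8 in 8-week non-β-cells. Most of this was Cd68, a lysosomal protein of macrophages, which was called higher at 8 weeks in both fractions (log2 0.51 and 0.81, adjusted p 0.0136 and 0.0106). Cd68 and Cd79a were the 2 of the 8 that passed the filter on low counts. Lyz2, Itgam and Itgax, the other myeloid markers listed, were each at or below 0.842 CPM in every sample. The B-cell receptor gene Cd79a held 2.89 to 3.77 CPM in β-cells with no call for age, and Ptprc, the gene of CD45, was at or below 0.789 CPM in every sample. The part of these markers in the results was not tested. The 4-week samples numbered 3 stood apart from their groups on the third principal component, which held 7.49% of the variance, and the second 4-week non-β sample lay apart from its group on that component, in the other direction, and on the second, which held 14.4%. The gene intervals of Gpi1, Pfkm, Pfkp, Aldoa, Tpi1 and Pkm overlap other annotated genes, and how reads were split among them was not tested. The samples numbered 3 at 4 weeks had the highest level of all 10 enzymes in their groups, and the 8-week samples numbered 3 had the highest level of 9 among β-cells and of 10 among non-β-cells.

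In β-cells, 9 of the 10 transcripts were higher at 8 than at 4 weeks (limma-voom, Benjamini-Hochberg adjusted p under 0.05). Pfkm, which encodes the muscle-type phosphofructokinase, was the one that did not pass (unadjusted p 0.821). The largest rise was that of Pfkp, the platelet-type phosphofructokinase, by 2.22 on the log2 scale. The other 8 rose by 0.79 to 1.12, that is by about 1.73 to 2.17 times. The median over the 10 was 0.97, against 0.02 over all tested genes, and 8.59% of all tested genes were called higher. For the same 9 transcripts the lowest 8-week sample lay above the highest 4-week sample, which held for 20.7% of all tested genes. These are levels relative to all counted RNA of a sorted fraction, so fewer cells of a type and less RNA per cell cannot be told apart. Without the 2 samples numbered 3 at 4 weeks, 9 transcripts still passed.

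**Figure D1:**
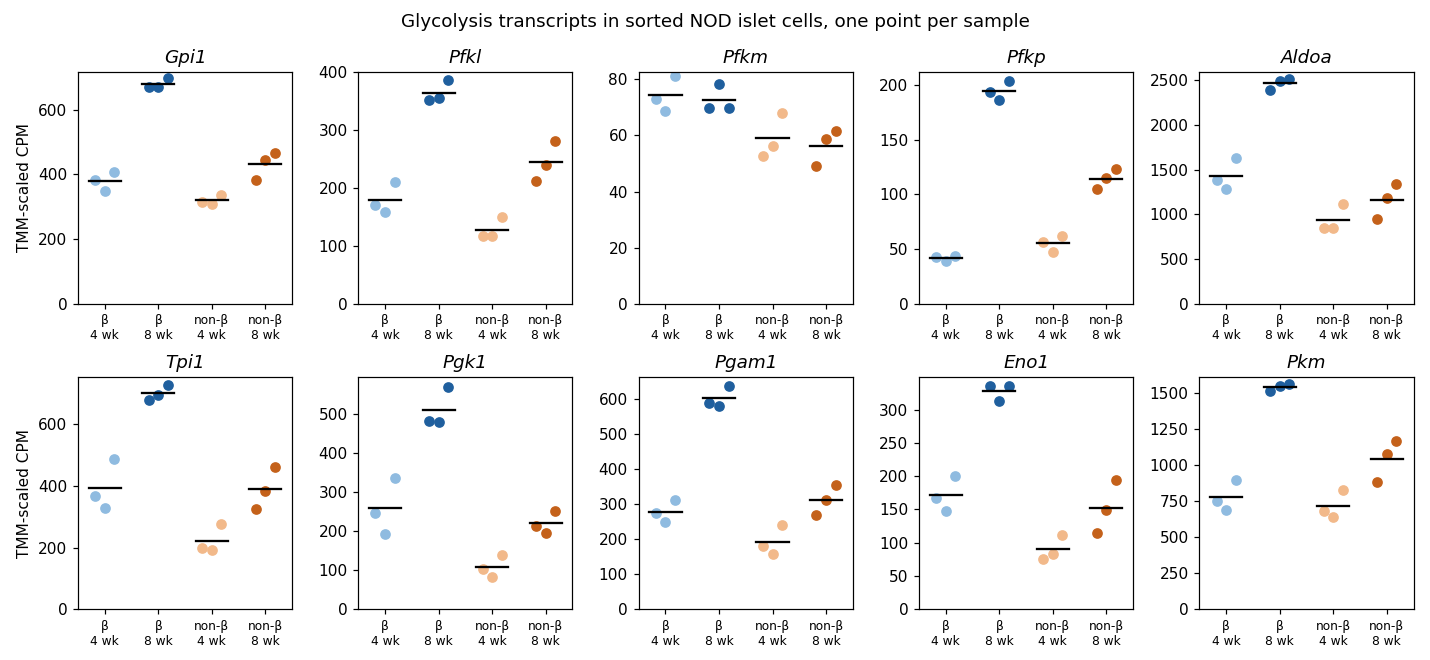
Level of the 10 transcripts in each of the 12 samples, in CPM after TMM scaling (y axis, from 0). Each point is a sample, in the order of its number, and each bar is the mean of 3. For 9 of the 10 the β-cell samples at 8 weeks lie above those at 4 weeks, and Pfkm is the exception.

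Markers of other cells moved between the ages as well. In β-cells the α-cell markers fell, from between 5753 and 9477 CPM in sum at 4 weeks to between 1671 and 2725 at 8 weeks, with 5 of 6 called lower, while 5 of 8 β-cell markers were called higher. The 6 acinar markers went in sum from between 79.2 and 157 to between 366 and 787 CPM, with 4 of 6 called. Their part in the rise of the enzymes was not tested. Each of the 9 was higher at 8 weeks also when the hormone and mitochondrial genes were removed before scaling.

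Gpi1 (ENSMUSG00000036427, chr7:34201330-34230336 on the minus strand of GRCm38) encodes the isomerase that turns glucose 6-phosphate into fructose 6-phosphate. Its level was 383, 348 and 408 CPM in the 3 β-cell samples at 4 weeks and 669.7, 669.5 and 697 CPM at 8 weeks. The ages did not overlap, and the log2 difference was 0.84 (SE 0.10, adjusted p 0.000108). Its non-β levels were 314, 309.6 and 337 CPM and then 383, 443 and 466 CPM. This was a smaller but non-overlapping difference of 0.42 (adjusted p 0.0102).

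The next step, the phosphorylation of fructose 6-phosphate, is the committed and most regulated one of the pathway, and its 3 isoforms behaved differently. Phosphofructokinase works as a tetramer that can mix liver-type (Pfkl), muscle-type (Pfkm) and platelet-type (Pfkp) subunits. Pfkp (ENSMUSG00000021196, chr13:6579768-6648777, minus strand) was at 42.6, 38.7 and 43.9 CPM in 4-week and at 194, 186 and 204 CPM in 8-week β-cells. Every 8-week value was more than 4 times the highest 4-week value, with a fitted fold of 4.67 (log2 2.22, 95% CI 1.98 to 2.47, adjusted p 9.23e-08). In non-β-cells Pfkp went from 56.6, 47.7 and 61.8 CPM to 105, 115 and 123 CPM, a log2 difference of 1.05 (adjusted p 3.43e-05). The groups did not overlap there either.

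Pfkl (ENSMUSG00000020277, chr10:77986947-78010083, minus strand) was the most abundant of the 3 isoforms. It was at 170.2, 159 and 209.8 CPM in 4-week and at 352, 355 and 387 CPM in 8-week β-cells, a rise of 1.03 (adjusted p 0.000297). The non-β samples held 117, 117 and 149.6 CPM at 4 weeks and 213, 239 and 282 CPM later, a rise of 0.94 (adjusted p 0.000422). Neither fraction showed overlap between the ages. Pfkm (ENSMUSG00000033065, chr15:98092589-98132451, plus strand) stayed between 68.8 and 81.1 CPM in all 6 β-cell samples and between 49.1 and 68.0 CPM in all 6 non-β samples. Its age difference was -0.03 in β-cells (95% CI -0.29 to 0.24, adjusted p 0.9) and -0.07 in non-β-cells (95% CI -0.34 to 0.21, adjusted p 0.793).

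The make-up of the phosphofructokinase pool differed between ages. Levels were divided by the length of the longest annotated coding transcript so that the isoforms could be set side by side. Pfkp made up 12 ± 0.779% (SD, n = 3) of the summed CPM per kilobase of the 3 isoforms in 4-week β-cells and 27.6 ± 0.708% in 8-week β-cells. Pfkm went the other way, from 30.8 ± 0.99% to 14.9 ± 1.3%, and Pfkl was at 57.2 ± 1.74% and 57.5 ± 0.929%. In non-β-cells Pfkp made up 19.7 ± 1.7% and then 24.6 ± 0.985%, Pfkm 30.1 ± 1.21% and then 17.4 ± 0.687%. The sum of the 3 rose from 84 ± 9.86 to 170.0 ± 6.3 CPM per kilobase in β-cells and from 68.1 ± 9.16 to 113 ± 13.6 in non-β-cells. With the union of annotated exons as length, the share of Pfkp in β-cells was 5.98% at 4 weeks and 16.0% at 8 weeks, and that of Pfkl was 51.4% and 60.1%. The sizes of the shares therefore rest on the length chosen, as does whether Pfkl was flat, while Pfkp was the higher at 8 weeks by both lengths.

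**Figure D2:**
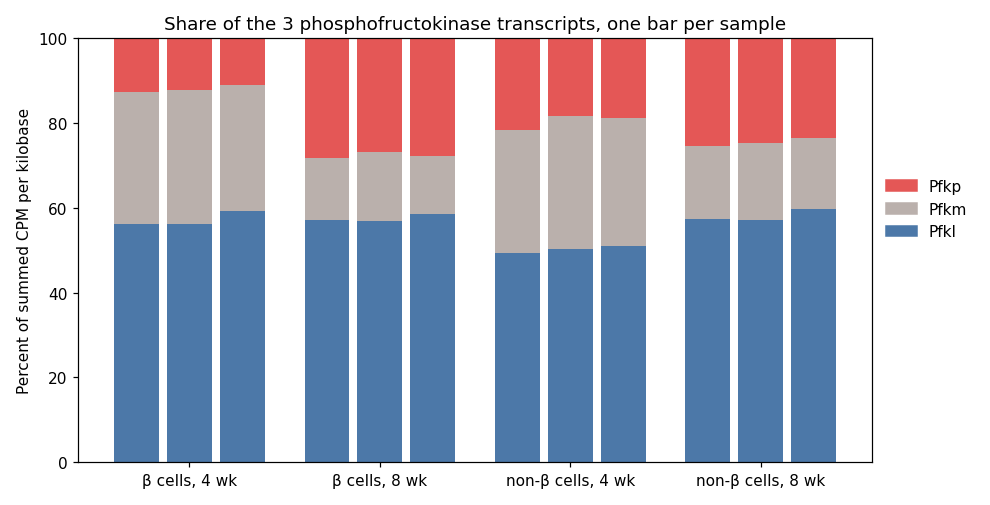
Share of Pfkl, Pfkm and Pfkp in the summed CPM per kilobase of the 3 (y axis, percent), 1 stacked bar per sample, grouped by fraction and age. The Pfkp part is near 12% in 4-week and near 28% in 8-week β-cells, and the Pfkm part shrinks in both fractions.

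The windows around the annotated starts of these isoforms are shown because the isoforms differed in their change with age. Each runs 5′ to 3′ from 250 bases before to 50 bases after a RefSeq start (GRCm38.p6). Capitals mark ACGTG or GCGTG, the core to which hypoxia-inducible factors are known to bind, read on either strand (CACGT and CACGC on the printed strand when reversed). The Pfkp window (chr13:6648722-6649021, minus strand) held 4 GCGTG, the Pfkl window (chr10:78009758-78010057, minus strand) 1 GCGTG, and the most upstream of the 4 Pfkm windows (chr15:98092339-98092638, plus strand) 3 ACGTG, of which 2 form the palindrome CACGTG. The other Pfkm windows, which lie downstream and are not printed, held 2, 1 and 0 cores. The window of Pgk1 (chrX:106186850-106187149, plus strand), the enzyme described further on, is given for comparison and held 2 ACGTG.
Pfkp: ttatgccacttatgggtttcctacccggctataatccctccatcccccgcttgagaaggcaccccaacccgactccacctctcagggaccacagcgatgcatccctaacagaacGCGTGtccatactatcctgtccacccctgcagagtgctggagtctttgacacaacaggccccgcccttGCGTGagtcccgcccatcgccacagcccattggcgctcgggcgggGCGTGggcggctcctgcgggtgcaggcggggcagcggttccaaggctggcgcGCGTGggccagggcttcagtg
Pfkl: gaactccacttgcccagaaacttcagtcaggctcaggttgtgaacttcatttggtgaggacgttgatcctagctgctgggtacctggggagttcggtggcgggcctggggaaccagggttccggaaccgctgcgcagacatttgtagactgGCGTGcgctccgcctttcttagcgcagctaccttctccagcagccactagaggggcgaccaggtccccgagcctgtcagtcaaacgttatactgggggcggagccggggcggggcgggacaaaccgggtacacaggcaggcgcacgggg
Pfkm: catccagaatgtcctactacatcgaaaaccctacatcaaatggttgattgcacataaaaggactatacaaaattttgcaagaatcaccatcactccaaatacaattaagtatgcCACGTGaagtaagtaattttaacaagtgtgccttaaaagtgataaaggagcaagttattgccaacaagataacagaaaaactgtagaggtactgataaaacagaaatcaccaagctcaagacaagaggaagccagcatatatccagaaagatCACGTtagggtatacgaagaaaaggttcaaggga
Pgk1: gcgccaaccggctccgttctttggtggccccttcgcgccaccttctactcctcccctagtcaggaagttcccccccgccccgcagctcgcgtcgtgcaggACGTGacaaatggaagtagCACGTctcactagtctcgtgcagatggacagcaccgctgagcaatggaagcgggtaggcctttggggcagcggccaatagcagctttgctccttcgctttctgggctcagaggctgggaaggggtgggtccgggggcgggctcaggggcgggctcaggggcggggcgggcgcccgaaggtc

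One or the other core was in 13 of the 18 windows of the 10 enzymes, and in 43.8% of the 32851 windows of the mouse table. The 13 belong to 8 enzymes, all but Gpi1 and Tpi1. Some windows of Pfkm, Aldoa and Eno1 overlap one another, so the same match can be counted more than once. A match says only that these letters are present. The E-box CACGTG, which overlaps the core, was in 1 of the 18 windows, that of Pfkm, and in 7.15% of all windows. The GC-box core CCGCCC was in 11 of the 18 windows, which belong to 9 enzymes, all but Pfkm, and in 35.7% of all windows.

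Aldolase and triose phosphate isomerase split the hexose into its 3-carbon products. Aldoa (ENSMUSG00000030695, chr7:126795234-126800751, minus strand), the aldolase of most tissues, was at 1384, 1284 and 1626 CPM in 4-week and at 2387, 2491 and 2508 CPM in 8-week β-cells. It rose by 0.79 (SE 0.15, adjusted p 0.00278) without overlap. In the non-β fraction the values were 848, 847 and 1114 CPM and then 949, 1179 and 1343 CPM. These ranges overlapped, and the difference of 0.30 (95% CI -0.01 to 0.62) did not pass (adjusted p 0.188). The second Aldoa identifier (ENSMUSG00000114515), a model just upstream of the first, held at most 2.19 CPM in any sample and passed in no comparison.

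Tpi1 (ENSMUSG00000023456, chr6:124810586-124814296, minus strand), which interconverts the 2 triose phosphates, was at 366, 329.9 and 487 CPM in 4-week and at 681, 695 and 727 CPM in 8-week β-cells. Its non-β levels were 197, 193 and 276 CPM and then 325, 384 and 462 CPM. The rises were of like size, 0.85 in the β fraction and 0.82 in the non-β fraction (adjusted p 0.0049 and 0.00522), and no ranges overlapped between the ages of a fraction.

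The lower part of the pathway yields ATP and ends in pyruvate. Pgk1 (ENSMUSG00000062070, chrX:106187100-106203699, plus strand) encodes phosphoglycerate kinase, the first step to make ATP. It was at 246, 193 and 337 CPM in 4-week and at 482, 479 and 570.2 CPM in 8-week β-cells, a rise of 1.01 (adjusted p 0.00433). The non-β samples held 103, 83.4 and 138 CPM at 4 weeks and 212, 196 and 251 CPM later, a rise of 1.05 (adjusted p 0.00311). Its 4 near-identical annotated copies, mostly the processed pseudogene Gm5537, carried from 10.2 to 36.5% as many counts as Pgk1 itself, so the split is uncertain. With the copies added, the rises were 1.03 and 1.06.

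Pgam1 (ENSMUSG00000011752, chr19:41911923-41918660, plus strand), the phosphoglycerate mutase of non-muscle tissues, had the second largest rise in β-cells. It was at 275, 248 and 311 CPM in 4-week and at 588, 580.1 and 639 CPM in 8-week β-cells, a log2 difference of 1.12 (adjusted p 0.000318). In the non-β fraction the values were 180.4, 156 and 239.7 CPM and then 269, 312 and 355 CPM, a log2 difference of 0.71 (adjusted p 0.00552). Neither fraction showed overlap.

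Eno1 (ENSMUSG00000063524, chr4:150236721-150248879, plus strand) encodes the enolase of most tissues. It was at 167, 148 and 201 CPM in 4-week and at 335, 313 and 336 CPM in 8-week β-cells, a rise of 0.94 (adjusted p 0.00406). Its non-β levels were 74.8, 83.6 and 112 CPM and then 114, 149 and 194 CPM, a rise of 0.75 (adjusted p 0.0153). These values understate the enolase pool, because 4 near-identical copies, above all Eno1b, carried from 67.9 to 76.0% of the counts summed over Eno1 and its copies. The sum rose by 1.06 (adjusted p 0.000562) in the β fraction and by 0.86 (adjusted p 0.00162) in the non-β fraction.

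Pkm (ENSMUSG00000032294, chr9:59656368-59679375, plus strand) encodes the pyruvate kinase that closes the pathway. It was at 748, 688 and 893 CPM in 4-week and at 1510.0, 1549 and 1562 CPM in 8-week β-cells, with 3 tightly grouped values at the later age. The rise was 1.00 (SE 0.14, adjusted p 0.000302). The non-β samples held 682, 636 and 824 CPM at 4 weeks and 881, 1074 and 1169 CPM later. The rise there was 0.54 (adjusted p 0.013), and the ranges did not overlap. Gene counts do not separate the splice forms of Pkm.

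In non-β-cells, 8 of the 10 transcripts were higher at 8 than at 4 weeks, and Aldoa and Pfkm did not pass (unadjusted p 0.0556 and 0.616). The background was 11.6% of all tested genes called higher. The median difference was 0.73, against 0.01 over all genes, and the 8 called transcripts did not overlap between the ages, which held for 19.0% of all genes. The largest were Pfkp and Pgk1 at 1.05 each and Pfkl at 0.94. The calls of Gpi1, Eno1 and Pkm were less firm. They were lost without the first non-β sample at 4 weeks, without the second, or with only the 2 groups in the fit, each of which left 5 transcripts. Without the third non-β sample at 8 weeks Eno1 and Pkm were lost and 6 remained. Aldoa gained a call under 4 alternatives, at adjusted p values from 0.00312 to 0.0428. These were sample quality weights, the length and GC trend removed, alone or with a replicate block, and the 2 samples numbered 3 at 4 weeks left out (0.44, adjusted p 0.0122).

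Markers of non-endocrine cells were higher in the 8-week non-β samples. The 5 endothelial markers summed to between 36.9 and 73.4 CPM at 4 weeks and to between 318 and 905 at 8 weeks, with 5 of 5 called higher. The 6 mesenchymal markers summed to between 102 and 290 and then to between 648 and 1001 CPM, with 6 of 6 called higher. Acinar markers summed to between 1.76 and 43.1 and then to between 136 and 606 CPM, with 2 of 6 called higher. The 4 duct markers summed to between 237 and 324 and then to between 339 and 404 CPM, with 3 of 4 called higher, among them Krt19 by 3.74 on the log2 scale (adjusted p 0.000882). The leukocyte marker Cd68 was higher as well, as given above. The 8 β-cell markers summed to between 2877 and 4006 CPM at 4 weeks and to between 4926 and 5840 at 8 weeks. Of these, Ins1 and Ins2 were called higher (log2 1.89 and 1.51, adjusted p 5.14e-05 and 0.000222) and Nkx6-1 lower. The 3 δ-cell markers summed to between 5287 and 7998 and then to between 8181 and 11659 CPM. Among them Sst was called higher (log2 0.88, adjusted p 0.0466). Ppy, the PP-cell marker, was not called (adjusted p 0.489). The 6 α-cell markers had 1 called lower. Their part in the enzymes' rise was not tested.

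**Figure D3:**
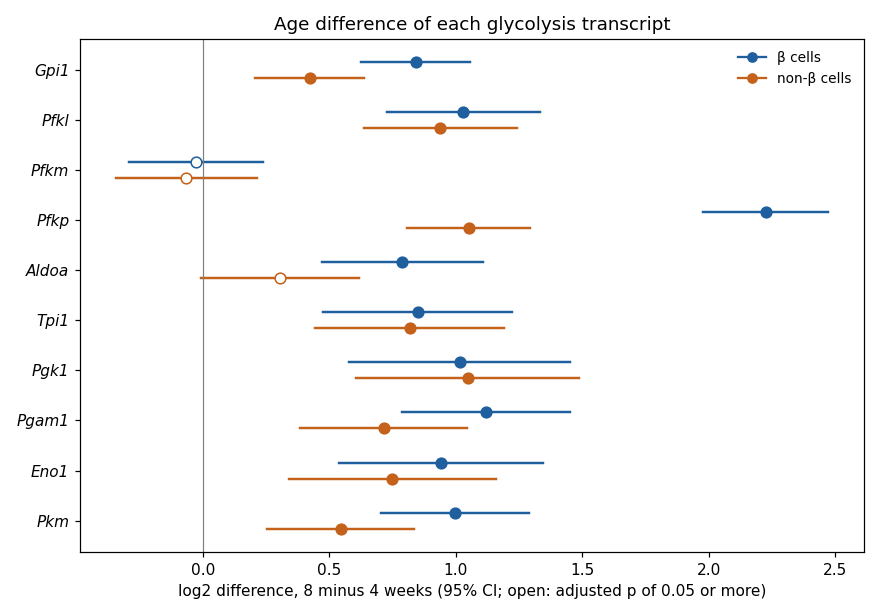
Age difference of each transcript as log2 of 8 over 4 weeks (x axis), in pathway order. Points are limma-voom estimates, lines 95% confidence intervals, and open points did not reach an adjusted p under 0.05. Pfkp in β-cells, at 2.22, is the one whose interval is clear of that in non-β-cells.

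Whether the age difference itself differed between the fractions was tested as an interaction. Of the 10 transcripts only Pfkp passed, against a background of 5.13% of all tested genes in either direction. Its rise was larger in β-cells by 1.17 (SE 0.16, 95% CI 0.83 to 1.52, adjusted p 0.000953). Gpi1, Aldoa, Pkm and Pgam1 had differences of 0.42, 0.48, 0.45 and 0.40 in the same direction, and their adjusted p values of 0.119, 0.221, 0.215 and 0.342 did not pass. For Pfkl, Pfkm, Tpi1, Pgk1 and Eno1 the difference lay between -0.03 and 0.19. The 95% interval of Pgk1, the widest of the 10, ran from -0.65 to 0.59, so moderate differences either way could not be detected with 3 samples a group. The count of 1 grew to between 2 and 5 under 6 of the alternatives tried, with Gpi1, Aldoa, Pgam1 and Pkm added where it reached 5.

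β-cells held more of most of these transcripts than non-β-cells did, with more calls at 8 weeks. Whether the difference between the fractions changed with age is the interaction given above, which only Pfkp passed. At 4 weeks 7 of 10 were higher in β-cells and 1 lower, where 24.9% of all tested genes were called higher and 23.7% lower. At 8 weeks 10 of 10 were higher, where 23.6% of all genes were called higher. The median difference was 0.52 at 4 weeks and 0.81 at 8 weeks. The largest were those of Pgk1, at 1.25 (adjusted p 0.000285) and 1.22 (adjusted p 0.000277), and of Eno1, at 0.95 (adjusted p 0.00124) and 1.14 (adjusted p 0.000249). Aldoa was higher in β-cells by 0.62 and 1.10, Tpi1 by 0.83 and 0.86, Pgam1 by 0.55 and 0.96 and Pfkl by 0.49 and 0.59.

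Pfkp was the transcript that changed sides. It was lower in β-cells at 4 weeks, by -0.40 on the log2 scale (adjusted p 0.013), and higher in them at 8 weeks, by 0.77 (adjusted p 7.21e-05). The ranges did not overlap at either age. Its 4-week call was lost under 5 alternatives, at adjusted p values from 0.0504 to 0.0782. These were leaving out the second β sample or the first non-β sample, removing the length and GC trend, no filter on low counts, and only the groups compared in the fit. Gpi1 and Pkm differed by 0.24 (adjusted p 0.0584) and 0.12 (adjusted p 0.472) at 4 weeks, which did not pass, and by 0.66 and 0.57 at 8 weeks (adjusted p 0.000126 and 0.0034). Gpi1 passed at 4 weeks under 9 alternatives, at adjusted p values from 0.00668 to 0.049, among them without the second β sample or the third non-β sample, and Pkm under 1 (adjusted p 0.0332). Pfkm was higher in β-cells by 0.34 at 4 weeks (adjusted p 0.0387) and 0.38 at 8 weeks (adjusted p 0.0251). The 4-week call of Pfkm was lost without β sample 1 or 3 or non-β sample 1 or 2, with no filter on low counts or with only the groups compared, and the 8-week call without β sample 1 or 2 or non-β sample 1, with adjusted p values between 0.051 and 0.148.

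**Figure D4:**
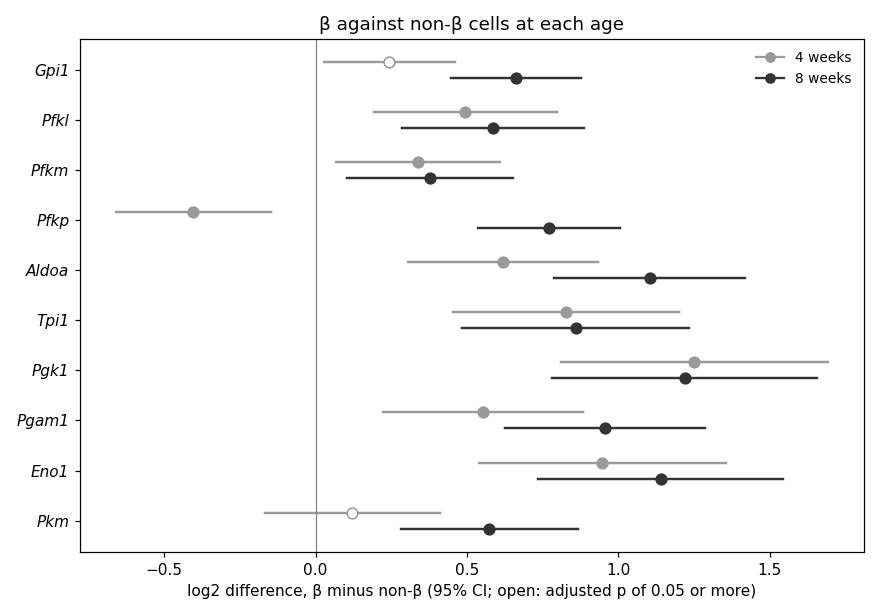
Difference between fractions as log2 of β over non-β (x axis) at 4 weeks (grey) and 8 weeks (black), in pathway order, with 95% confidence intervals. Open points did not reach an adjusted p under 0.05. Pfkp lies left of 0 at 4 weeks and right of it at 8 weeks, while the other 9 lie right of 0 at both ages.

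Per kilobase of transcript, the enzymes spanned a wide range of levels and kept much the same order. In β-cells at 4 weeks the mean was 924 CPM per kilobase for Aldoa, 319 for Pkm and 245 for Tpi1, and the samples of Pkm and Tpi1 overlapped. Pgam1, Pgk1 and Gpi1 followed at 157, 142 and 132 with overlapping neighbours, then Eno1 at 84.9, Pfkl at 48.2, Pfkm at 25.8 and Pfkp at 10.1. At 8 weeks the order in β-cells was the same except for the last pair, with Pfkp at 46.9 above Pfkm at 25.2, and no neighbours overlapped. With the union of annotated exons as length, Pgam1 (297, 293 and 322) lay above Tpi1 (247, 253 and 264) in 8-week β-cells. It overlapped Pkm (302, 310 and 312) there. The order, the ranks and the Aldoa share below therefore rest on the length chosen. This order counts Eno1 without its copies. With them Eno1 was at 313 CPM per kilobase at 4 weeks and 648 at 8 weeks, beside 319.9 and 634 for Pkm with its own copies. In non-β-cells Pfkp was also last at 4 weeks (13.4) and Pfkm last at 8 weeks (19.6). Among the 13603 protein-coding genes tested, Aldoa ranked 34 in 4-week and 16 in 8-week β-cells, and Pfkp ranked 5933 and then 1421. The rank of Pfkm was 2919 and then 2747.

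Summed over the 10 enzymes, the level was 2088 ± 298 CPM per kilobase (SD, n = 3) in 4-week and 3845 ± 115 in 8-week β-cells. In non-β-cells it was 1427 ± 229 and 2051 ± 311. As a share of all counts the 10 made up 0.403 ± 0.0387% and 0.738 ± 0.0189% in β-cells, and 0.285 ± 0.0405% and 0.402 ± 0.047% in non-β-cells. Aldoa alone gave 44.3 ± 0.886% of the sum in 4-week and 41.3 ± 0.675% in 8-week β-cells.

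The transcripts whose pattern over the 12 samples was most like the mean of the 10 included the one enzyme missing from the set. Gapdh, which encodes the dehydrogenase between Tpi1 and Pgk1, came first at a Pearson r of 0.989. It was at 850.0, 746 and 1009 CPM in 4-week and at 1926, 1999.7 and 1929 CPM in 8-week β-cells, a rise of 1.18 (adjusted p 0.000181). In non-β-cells Gapdh rose by 0.57 (adjusted p 0.0168). Pgm1 (phosphoglucomutase, 0.985), Eno1b (0.979), Fkbp9 (0.977) and Bnip3 (a mitophagy receptor, 0.972) followed. Eno1b is the near-identical copy of Eno1 named above, and reads are split between them, so its likeness is not independent of the set. Of the 10 themselves, 8 had an r of 0.94 to 0.99 with the mean of the other 9, Pfkp 0.75 and Pfkm 0.53. These values describe 12 samples of 4 groups and carry no test.

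The related gene lists are read against all tested genes, of which 8.59% were called higher and 9.35% lower at 8 weeks in β-cells, and 11.6% and 4.80% in non-β-cells. Upstream of the 10, glucose uptake and hexokinases were higher at 8 weeks, with 5 of 7 tested genes called higher in the β fraction and 4 in the non-β fraction. Slc2a2, a glucose transporter typical of mouse β-cells, went from 35.7 ± 5.95 to 79.2 ± 2.8 CPM in β-cells (log2 1.16, adjusted p 3.92e-05). Slc2a1, another glucose transporter, had more CPM there, 126 ± 4.64 and then 182 ± 8.08 (log2 0.53, adjusted p 0.0145). Hk1, a high-affinity hexokinase that β-cells are known to keep low, was at 2.94 ± 0.895 CPM in 4-week and at 2.83 ± 0.794 CPM in 8-week β-cells (log2 0.00, adjusted p 0.994). In non-β-cells it was at 54.7 ± 4.95 and 79.4 ± 11.2 CPM. Hk2, another high-affinity hexokinase, rose from 0.24 ± 0.233 to 2.65 ± 0.906 CPM in β-cells (adjusted p 0.0204) and from 2.64 ± 0.657 to 18.6 ± 4.82 CPM in non-β-cells (adjusted p 8.8e-05).

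Among the other glycolytic isoforms and regulators, 6 of 14 tested were higher and 1 lower in β-cells at 8 weeks, and 3 were higher in non-β-cells. Pfkfb3, whose product makes the fructose 2,6-bisphosphate that activates phosphofructokinase, rose from 21.9 ± 4.74 to 93.3 ± 12.3 CPM in β-cells and from 39.5 ± 4.73 to 168 ± 8.37 CPM in non-β-cells. The log2 change was 2.09 in both (adjusted p 3.46e-06 and 1.31e-06). Eno2, the neuronal enolase, rose in β-cells by 0.58 (adjusted p 0.000686) and not in non-β-cells (-0.14, adjusted p 0.328), and the difference between the fractions passed (0.72, adjusted p 0.0045).

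Downstream, the lactate branch moved most. Ldha, the lactate dehydrogenase subunit that β-cells are known to keep low, was at 3.31, 1.47 and 6.1 CPM in 4-week and at 86.9, 67.5 and 93.6 CPM in 8-week β-cells, a fitted fold of 27.3 (log2 4.77, adjusted p 8.36e-05). In non-β-cells it rose from 22.5 ± 11.6 to 159.8 ± 36.1 CPM (log2 2.94, adjusted p 1.95e-05), and the difference between the fractions did not pass (adjusted p 0.12). Slc16a3, a lactate exporter, rose by 4.08 in β-cells and 3.52 in the non-β fraction (adjusted p 9.18e-05 and 8.53e-06). Slc16a1, a related carrier that β-cells are known to keep low, was at 12.0, 14.5 and 15.5 CPM in 4-week β-cells. The 4-week non-β samples held much the same, 12.5, 15.2 and 14.0 CPM. In 8-week β-cells Slc16a1 was at 6.66, 4.41 and 5.66 CPM, a change of -1.36 (adjusted p 0.000729). The whole list of lactate formation and export had 4 of 7 tested genes higher and 1 lower in β-cells, and 3 higher in non-β-cells.

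Of 14 tested genes of the mitochondrial fate of pyruvate, 2 were higher and 2 lower in β-cells, where 8.59% and 9.35% of all genes were, and 2 were higher in non-β-cells, against 11.6%. Pdk1, a kinase that turns pyruvate dehydrogenase off, rose by 1.30 and 1.00 (adjusted p 0.000463 and 0.00674), and in β-cells Pdk3, another such kinase, rose by 0.86. Pdp2, a phosphatase that turns the enzyme on, and Mpc1, a subunit of the mitochondrial pyruvate carrier, changed by -1.15 and -0.49 in β-cells (adjusted p 0.00202 and 0.0499). The call of Mpc1 lies at the threshold. Its levels were 65.5, 74.0 and 104 CPM in 4-week β-cells, highest in the sample numbered 3, and 54.7, 53.6 and 62.0 CPM in 8-week β-cells. Of 10 NADH shuttle genes 1 was higher in β-cells (Gpd2, 0.56), and in non-β-cells 1 was higher (Gpd1, 0.53) and 1 lower (Got1, -0.73). Of 7 pentose phosphate genes 1 was higher in β-cells (G6pdx, 0.61), and the median of the 7 in non-β-cells was -0.02.

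Most tested genes of the steps that oppose glycolysis were also called. Of 6, 4 were higher and 1 lower in β-cells, and 3 higher and 1 lower in non-β-cells. Fbp1, which reverses the phosphofructokinase step, rose by 2.51 in β-cells and 1.55 in the non-β fraction (adjusted p 8.55e-05 and 7.65e-05). G6pc2, the islet glucose 6-phosphatase that releases glucose again, rose from 451 ± 29 to 980.0 ± 35.1 CPM in β-cells (log2 1.12, adjusted p 5.44e-06). Pck2, which makes phosphoenolpyruvate in mitochondria, changed by -0.79 and -0.69 (adjusted p 0.000281 and 0.000812).

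Of 16 tested genes of the hypoxia pathway outside glycolysis, 6 were higher and 2 lower in β-cells, and 7 higher and 2 lower in non-β-cells. The background was 8.59% and 9.35% of all genes in the former and 11.6% and 4.80% in the latter. The list holds oxygen-sensing genes as well as genes that respond to hypoxia. Among the sensing genes, Vhl was at 65.3, 62.5 and 63.3 CPM in 4-week and at 35.7, 40.5 and 44.0 CPM in 8-week β-cells. Egln2 went from 129, 135 and 184 CPM to 88.0, 94.7 and 84.8 CPM there. Egln3, a prolyl hydroxylase of the oxygen-sensing pathway, rose by 2.66 in the β fraction and by 1.69 in the non-β fraction (adjusted p 0.000568 and 0.00034). Bnip3 rose by 1.35 and 0.88 (adjusted p 6.03e-05 and 0.00159). Car9, a carbonic anhydrase, was at 0 in all 3 β-cell samples at 4 weeks and at 0.37, 0.226 and 0.642 CPM at 8 weeks, at least 3.03-fold higher when the floor is set at 3 counts per library. In non-β-cells it rose from 0.304 ± 0.199 to 8.46 ± 1.88 CPM (adjusted p 0.000221). Vegfa, an angiogenic factor, changed by 0.28 in the β fraction and by -0.39 in the non-β fraction (adjusted p 0.0515 and 0.0102), a difference that passed (0.68, adjusted p 0.00962).

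**Figure D5:**
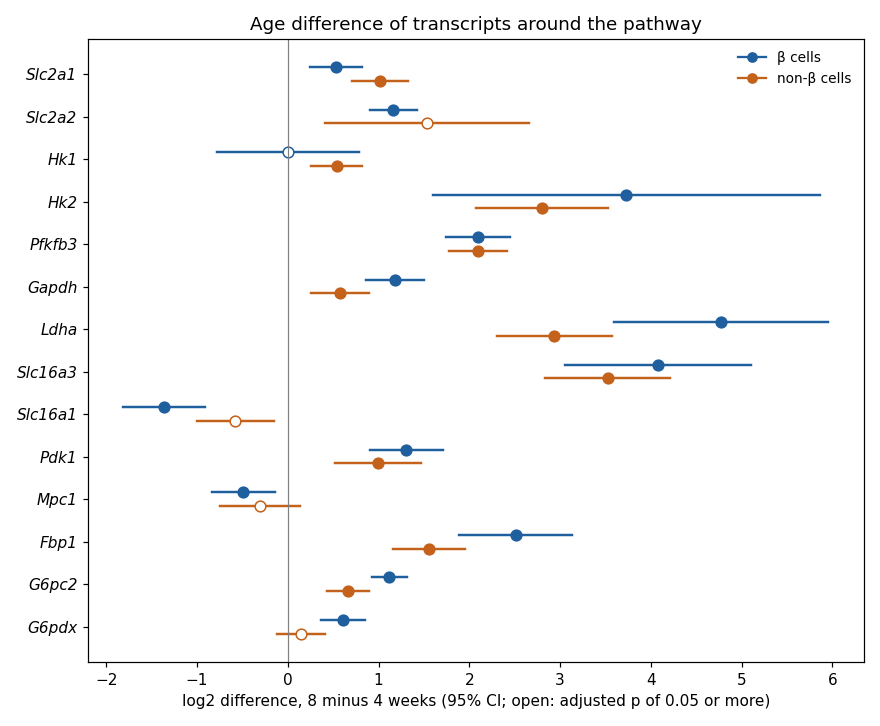
Age difference of 14 transcripts around the 10 enzymes, as log2 of 8 over 4 weeks (x axis) with 95% confidence intervals, in β-cells (blue) and non-β-cells (orange). Open points did not reach an adjusted p under 0.05. Ldha and Slc16a3 lie farthest to the right in β-cells, Slc16a1 and Mpc1 lie left of 0, and Hk1 in β-cells sits at 0.

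Some genes around the pathway differed between the fractions by more than any of the 10 enzymes did. Hk1 was lower in β-cells by -4.27 at 4 weeks and -4.80 at 8 weeks on the log2 scale (adjusted p 7.52e-08 and 1.74e-08). Ldha was lower in β-cells by -2.78 and -0.94 (adjusted p 0.00143 and 0.00771), and at 8 weeks it differed by less than Pgk1 did (1.22). Slc2a2 was higher in them by 5.36 and 4.99, G6pc2 by 3.81 and 4.27, and Pcx, the pyruvate carboxylase that feeds the mitochondrial cycle, by 2.51 and 2.65. Pdk4, which restrains pyruvate oxidation, was lower in them by -4.22 and -5.83. Gapdh differed by less than Pgk1 at both ages. It was higher by 0.37 at 4 weeks, which did not pass (adjusted p 0.054), and by 0.98 at 8 weeks (adjusted p 0.000142).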

How the data were processed

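The files hold 1 table of gene-level estimated counts for 12 samples. The authors trimmed 100-base single-end reads of strand-specific total RNA libraries with fastp, quantified them against the mouse transcriptome of Ensembl 98 (GRCm38) with kallisto, and summed transcripts to genes with tximport. Versions are not given in the sources used here. The deposited estimated counts were not normalised and were rounded to whole numbers here. Kallisto splits reads among near-identical transcripts, so Eno1 and Pgk1 are uncertain against their copies. Copies were found with BLAST 2.17.0 as transcripts at 95% identity or more over 80% or more of their length.

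Genes above 1 CPM in at least 3 samples were kept (15598), scaled by TMM (edgeR 4.0.16) and tested by limma-voom in R 4.3.3 (limma 3.58.1), with 1 mean per group over all 12 samples, with Benjamini-Hochberg adjustment over all genes tested. The filter, TMM, voom, limma and the adjustment are those of the study's methods, and the fit over all 12 samples was chosen here. Fold changes are voom log2 CPM differences, and CPM values are TMM-scaled. Alternatives included edgeR's quasi-likelihood test, DESeq2 1.42.0, other scalings and filters, sample weights, a replicate block, removal of length and GC trends and leaving out samples. Symbols, intervals and lengths came from GENCODE M21, which paired 52002 of the 52962 identifiers, and promoter windows from RefSeq.

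The 10 members are the symbols given above, all named. Of each list of related genes, up to 3 per comparison with an adjusted p under 0.05 and the largest log2 difference could be named, and Gapdh, Hk1 and Ldha always. A few genes under this rule are not reported here. Other genes of the lists (Eno2, Mpc1, Bnip3, Pdk3, G6pc2 and Pck2 among them) were named after their values were seen. Likeness was Pearson's r with the mean of the standardised log2 CPM of the 10. The members and lists were chosen with earlier results of these data known. Nothing in the labels says that samples of a group were separate cultures, so p values measure the spread between these samples.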

Additional observations from a re-analysis of the deposited data

Results flagged for a closer look

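Pfkp was singled out because its age difference differed between the fractions by the test of that difference itself. It rose by 2.22 on the log2 scale in β-cells and by 1.05 in non-β-cells between 4 and 8 weeks, a difference of 1.17 (SE 0.16, adjusted p 0.000953 by limma-voom). The difference ran from 1.08 to 1.28 over the 25 alternative settings and passed in each. The α-cell markers in the β-cell samples fell between these ages. In the non-β samples the β-cell, δ-cell, endothelial, mesenchymal, acinar and duct markers rose in sum. The part of these markers in the difference was not tested.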

How the results depend on the processing

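In β-cells the count of 9 transcripts higher at 8 weeks was the same under all 20 alternatives, leaving out each sample included. In non-β-cells the count of 8 went to 5 with only the groups compared and ranged from 5 to 8 when a sample was left out, and Aldoa was added under 4 alternatives. The interaction count of 1 went to 2 with DESeq2, 4 with sample quality weights, 5 with the length and GC trend removed, 5 with that and the replicate block together, and 2 with both 4-week samples numbered 3 left out. Between the fractions the counts ranged from 6 to 9 at 4 weeks and from 9 to 10 at 8 weeks when a sample was left out.

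Signs turned only for differences near 0 that did not pass. Pfkm in β-cells (-0.03) became 0.024 with quality weights, 0.023 with the length and GC trend removed, 0.023 with the block added to that, 0.038 without the 4-week samples numbered 3, and -0.11 to 0.037 when a sample was left out. Pfkm in non-β-cells (-0.07) became 0.086, 0.043 without the samples numbered 3, and -0.18 to 0.046 when a sample was left out. Among the interactions, Pfkm (0.04) became -0.062 with quality weights, -0.0056 without the samples numbered 3 and -0.077 to 0.12 when a sample was left out. Tpi1 (0.03) became -0.0038 with DESeq2, -0.0051 with quality weights and -0.14 to 0.19. Pgk1 (-0.03) became 0.063 with quality weights, 0.0088 with the length and GC trend removed, 0.0088 with the block added and -0.23 to 0.18. Pfkl (0.09) ranged from -0.036 to 0.21 and Eno1 (0.19) from -0.0078 to 0.38. The cause was not tested.

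Whether samples of the same replicate number came from the same mice is not said in the labels, and the values below did not decide it. Between the fractions, same-numbered samples had correlations of their deviations of 0.080, 0.13 and 0.31 at 4 weeks (mean 0.17, against -0.085 for other numbers) and 0.0080 to 0.049 at 8 weeks. Between the ages they went down to -0.0063. Not every pair was over 0.1, and not every sample correlated best with its own number. The replicate block raised the interaction count to 5 of 10 (Gpi1, Aldoa, Pgam1 and Pkm added), added Gpi1 between the fractions at 4 weeks and changed no other call on the 10. Over all genes it raised the interaction calls from 800 to 1879.

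Over all genes, the β-cell age calls (2799) were 5382 with quality weights, 4396 with the length and GC trend removed and the block, and 1695 to 1734 without any 1 of the 8-week β samples. The non-β age calls (2561) were 4186 with the length and GC trend removed and the block. The interaction calls (800) were 1562 with DESeq2, 2384 with quality weights, 1554 with the length and GC trend removed, 2446 with the block added, 1468 without the 4-week samples numbered 3, and 455 to 510 without any of the 8-week β samples, the first 4-week non-β sample or the third 8-week non-β sample. Without a filter on low counts the median of all genes moved to 0.21 for age in non-β-cells, -0.23 between the fractions at 8 weeks and -0.11 for the interaction.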

Other observations

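Of the 81 tested genes around the 10 enzymes, 4 had an age difference that differed between the fractions by limma-voom, a share close to the 5.13% of all tested genes. Eno2 and Vegfa are described in the report. Pdk4, a kinase that restrains pyruvate oxidation, was higher by 0.99 in 8-week non-β-cells (adjusted p 0.000278) and was low in β-cells at both ages, with a difference between the age changes of -1.61 (adjusted p 0.0321). P4ha1, a collagen prolyl hydroxylase known to respond to hypoxia, was higher at 8 weeks by 0.42 in the β fraction (adjusted p 0.0104) and by 0.95 in the non-β fraction (adjusted p 2.54e-05), a difference of -0.53 (adjusted p 0.043).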
